A study of Rattus norvegicus with 90 samples.

Results

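Fetal livers of rats whose dams were given Nafion byproduct 2 at 10 mg/kg/d were set against fetal livers of control dams at gestation day 18 (GD18). The members were 10 of the 90 libraries of the series, chosen by their titles: 4 livers at 10 mg/kg/d and 6 control livers. Nafion byproduct 2 (NBP2) is a polyfluorinated ether sulfonic acid that arises in the making of a fluoropolymer. Pregnant Sprague-Dawley rats (Crl:CD(SD)) were dosed orally each day from GD14 to GD18 and killed 2 to 4 h after the last dose, and control dams were at 0 mg/kg/d. The livers at 10 mg/kg/d came from dams 2080 and 2081 of study block 140 and dams 2125 and 2126 of study block 143. The control livers came from dams 2069, 2070 and 2071 of block 140 and dams 2114, 2115 and 2116 of block 143. RNA was read with TempO-Seq, in which paired detector probes are ligated on a transcript and the product is sequenced, so a gene is measured at its probe site and levels of different genes are not on 1 scale. Neither the number of fetuses behind a library nor their sex is given in the labels, so the spread between libraries of a group is taken as the spread between litters. The doses next to 10 mg/kg/d, 30 and 3 mg/kg/d with 4 livers each, maternal liver of the same dams, and fetal liver at GD21 were used only to place this response. The later age is GD21 in the titles and GD20 in the age entry.

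PPAR-alpha is a nuclear receptor of liver that binds fatty acids and, in adult rodents, raises the transcription of genes for fatty acid uptake, for oxidation in peroxisomes and mitochondria and for omega-hydroxylation by the Cyp4a enzymes. PXR and CAR, related receptors that bind drugs and other foreign compounds, raise Cyp3a and Cyp2b genes. The liver of a late rat fetus is at the same time a site of blood cell formation, so erythroid transcripts make up a large share of its RNA, while many enzymes of adult hepatocytes are still low.

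No gene passed the test at 10 mg/kg/d. In edgeR's quasi-likelihood test with Benjamini-Hochberg adjustment over 12659 genes and study block as a covariate, 0 genes (0.0% of those tested) had an adjusted p under 0.05, and the smallest adjusted p was 0.727. DESeq2 made 0 calls as well. An unadjusted p under 0.05 was reached by 863 genes in edgeR, or 6.82% of those tested, and by 442 in DESeq2. Of the 863 genes, 148 (1.17% of those tested) were higher and 715 (5.65%) were lower at 10 mg/kg/d. The 715 became 222 when the control liver of dam 2070 was left out, beside 115 higher, and 459 without the liver of dam 2080 at 10 mg/kg/d. The 148 became 234 without the control liver of dam 2114. In this fit no gene described below for 10 mg/kg/d against control had an edgeR adjusted p under 0.727, so their values are given as measured and no change is called.

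The lower side was made up mostly of genes in the lower part of the range of levels. Levels are given in CPM, the estimated count of a gene scaled to the total of its library. Among the 6162 genes with a mean log2 CPM under 3, 645 were lower and 60 higher at an unadjusted p under 0.05. Among the 6497 genes at or above that level, 70 were lower (1.08%) and 88 higher (1.35%). Odorant, vomeronasal and taste receptor genes are known mainly from sensory tissue. Out of 628 tested, they gave 166 of the lower genes and 0 of the higher ones, with a median log2 fold change of -2.16. Their summed level was 313 and 425 CPM in the livers at 10 mg/kg/d of block 140, against 1095, 1489 and 3617 CPM in the control livers of that block. In block 143 it was 28.8 and 29.5 CPM at 10 mg/kg/d, against 18.0, 35.4 and 41.8 CPM in control livers. The receptor signal was thus high in block 140 in both groups and lower at 10 mg/kg/d within that block only. It varied widely between block 140 fetal GD18 livers at the other doses. There it ran from 130 CPM (dam 2075, 0.3 mg/kg/d) to 5335 CPM (dam 2073, 0.1 mg/kg/d). The block 140 livers at 3 mg/kg/d had 233 and 4861 CPM, and those at 30 mg/kg/d 476 and 204 CPM. The 3617 CPM belonged to the control liver of dam 2070. With the receptor share as a covariate, 233 genes were lower and 230 higher at the same threshold. That share is the summed level of the receptor genes themselves, so part of this shift was built in.

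Precision differed between these classes of genes. The 95% interval of the log2 fold change reached a median of 0.35 to either side of the estimate for the 6497 better expressed genes, and of 0.51 for all genes tested. For 6202 of the 6497 genes (95.5%), the whole interval lay within 1 log2 unit of 0 on either side. Their median log2 fold change was 0.04, and 4054 of them (62.4%) lay above 0. Over all 12659 genes the median was -0.02, and 5792 (45.8%) lay above 0.

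Depth and marker sums overlapped between the groups. Totals ran from 4985693 to 7017710 counts at 10 mg/kg/d, against 4640700 to 6365273 in control livers. The number of genes with a count was 13635 to 15956 at 10 mg/kg/d, against 12867 to 20010 in control livers, and was higher in block 140. Haemoglobin genes took 9.92% to 15.5% of counts at 10 mg/kg/d, against 10.7% to 13.4% in control livers. Markers of fetal hepatocytes summed to 16680 ± 2276 CPM at 10 mg/kg/d and 16040 ± 2179 CPM in control livers, and erythroid markers to 121300 ± 18450 CPM at 10 mg/kg/d and 123200 ± 11900 CPM in control livers (SD, n = 4 and 6). Markers of mature hepatocytes summed to 9038 ± 709 CPM at 10 mg/kg/d and 8949 ± 728 CPM in control livers, and those of macrophages to 290 to 340 CPM at 10 mg/kg/d against 298 to 394 CPM in control livers. Gene by gene, 8 of 8 fetal hepatocyte markers tested had a log2 fold change above 0, with a median of 0.20 and 2 higher at an unadjusted p under 0.05, and 8 of 10 stellate cell markers lay above 0, with a median of 0.27. The part of these markers in the lists described below was not tested. The sums of the 13 marker lists overlapped between the groups, and of 17 exact two-sided permutation tests of library measures over the 210 possible splits none had an adjusted p under 0.749. Those tests took no account of study block. Within block 140 the livers at 10 mg/kg/d had 15250 and 15956 genes with a count, against 18685, 18714 and 20010 in control livers, and these did not overlap. In bulk liver, fewer cells of a type and less RNA per cell cannot be told apart. Y-linked transcripts were unevenly spread: 1 of 4 livers at 10 mg/kg/d, that of dam 2080, and 5 of 6 control livers, all but that of dam 2114, had more than 100 CPM of Y-linked genes. With fetal sex as a covariate edgeR called 151 genes, 149 of them lower, of which 46 were receptor genes, and 2 higher, Adtrp and Poglut1. With sex and the receptor share together it called 0. The receptor share is the summed level of the receptor genes themselves, so part of this drop was built in.

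**Figure D1:**
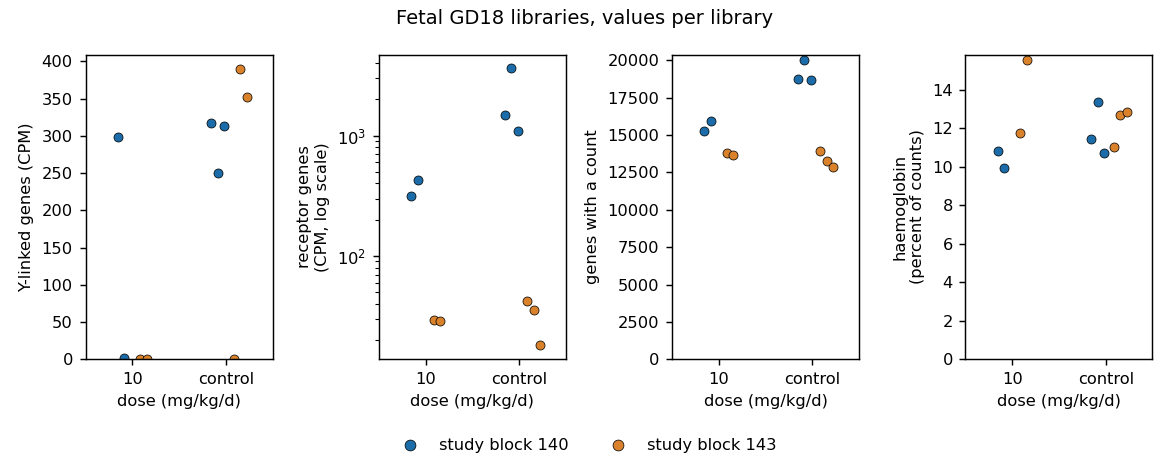
Y-linked CPM, receptor-gene CPM (log axis), genes with a count and haemoglobin percent of counts in the 4 fetal livers at 10 mg/kg/d and the 6 control livers at GD18, 1 point per library, coloured by study block. Receptor-gene CPM is high in block 140 in both groups, and Y-linked CPM is above 100 in 1 of 4 livers at 10 mg/kg/d and in 5 of 6 control livers.

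The promoters of 3 lipid genes that the next results turn on are shown because they carry letters known from PPAR response elements. The core motif searched was AGGTCA, or TGACCT on the other strand. The full motif was AGGTCANAGGTCA, or TGACCTNTGACCT on the other strand, with at most 1 mismatch, and it contains the core motif. The windows are the 250 bases before the RefSeq start on GRCr8, read 5' to 3' on the strand of the gene, with the match in capitals. They lie at chr4:104749090-104749339 (plus strand) for Fabp1, chr5:134352237-134352486 (minus strand) for Cyp4a3 and chr5:134170909-134171158 (minus strand) for Cyp4a2.
Fabp1: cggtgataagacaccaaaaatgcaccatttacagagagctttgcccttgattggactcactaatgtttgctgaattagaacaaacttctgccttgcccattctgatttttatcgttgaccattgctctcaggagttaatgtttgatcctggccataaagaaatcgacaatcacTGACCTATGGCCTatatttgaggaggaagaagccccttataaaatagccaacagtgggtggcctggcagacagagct
Cyp4a3: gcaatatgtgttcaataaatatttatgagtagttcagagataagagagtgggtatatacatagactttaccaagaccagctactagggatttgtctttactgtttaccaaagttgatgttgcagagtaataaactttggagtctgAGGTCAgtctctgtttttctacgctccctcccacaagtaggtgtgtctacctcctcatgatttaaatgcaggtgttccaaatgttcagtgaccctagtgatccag
Cyp4a2: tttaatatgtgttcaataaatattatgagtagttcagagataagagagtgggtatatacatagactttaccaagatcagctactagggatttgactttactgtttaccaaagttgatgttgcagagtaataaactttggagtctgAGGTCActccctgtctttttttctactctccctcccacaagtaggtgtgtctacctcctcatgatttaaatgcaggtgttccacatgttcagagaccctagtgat
In Fabp1 the match to the full motif, with 1 mismatch, begins 77 bases before the start, and it includes a core motif. In Cyp4a3 and Cyp4a2 a core motif begins 105 bases before the start. Both neighbouring genes are near copies of each other, and their windows had 236 identical bases among 245 aligned, with 10 gap bases. Of 33469 promoter windows of the same length, 14.1% held the core motif and 0.368% held the full motif with at most 1 mismatch. The windows of Ehhadh, Acot1 and both starts of Adtrp held neither. A match is a description of the letters and shows no binding.

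Genes of the PPAR-alpha list stood mostly above control. Of its 40 entries 31 were in the file and 24 were tested. None passed the test, while at an unadjusted p under 0.05 9 were higher and 1 was lower at 10 mg/kg/d, against 1.17% and 5.65% of all genes. The list was chosen with earlier results of these data known, so its counts here and below are not independent of these data. The median log2 fold change of the 24 genes was 0.37, against -0.02 over all genes and 0.04 over the better expressed ones. Of the 24 genes 17 lay above 0, as did 45.8% of all genes and 62.4% of the better expressed ones. The summed level of the list was 794 to 1020 CPM at 10 mg/kg/d, against 616 to 805 CPM in control livers, so the ranges overlapped. The 9 higher genes were Adtrp, Cyp4a3, Rgn, Fabp1, Lpl, Acot2, Ehhadh, Cyp4a2 and Acot1, and the lower one was Cyp4a8, which was close to the detection limit with a log2 fold change of -3.33 ± 1.56 (SE).

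Fabp1, which binds fatty acids in the cytosol of hepatocytes (rn6 chr4:99063181-99066955, plus strand), was read at 94.8 CPM (dam 2080), 75.4 CPM (dam 2081), 192 CPM (dam 2125) and 144 CPM (dam 2126) at 10 mg/kg/d, against 44.8 CPM at the lowest, 66.2 CPM at the median and 98.5 CPM at the highest in control livers. Both livers of block 143 at 10 mg/kg/d lay above every control liver, while those of block 140 lay within the control range. Fabp1 had a log2 fold change of 0.83 ± 0.27 (SE), with 0.58 within block 140 and 1.16 within block 143. The difference between the blocks was 0.71 ± 0.53 (SE, edgeR adjusted p = 0.86).

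Of the Cyp4a enzymes, which omega-hydroxylate fatty acids, Cyp4a3 and Cyp4a2 stood above control and Cyp4a8 and Cyp4a1, both close to the detection limit, stood below it. Cyp4a3 (rn6 chr5:134469270-134484840, minus strand) stood at 8.05 CPM (dam 2080), 11.4 CPM (dam 2081), 19.6 CPM (dam 2125) and 13.4 CPM (dam 2126) at 10 mg/kg/d, against a lowest of 4.27 CPM, a median of 6.26 CPM and a highest of 9.66 CPM in control livers. The liver of dam 2080 lay inside the control range and the other 3 lay above it. For Cyp4a3 the log2 fold change was 1.01 ± 0.25 (SE), with 0.95 within block 140 and 1.14 within block 143. Cyp4a2 (rn6 chr5:134196912-134207864, minus strand) stood at 4.89, 6.89, 11.9 and 8.13 CPM at 10 mg/kg/d, against 3.56 to 5.97 CPM in control livers, with a median of 4.57 CPM. Its log2 fold change was 0.81 ± 0.34 (SE). Estimated counts of these near copies were not whole numbers, so reads may be shared between them and their values are uncertain as single genes. Cyp4a1, a related enzyme, did not pass the filter on low counts in fetal GD18 liver and averaged 0.0839 ± 0.0991 CPM at 10 mg/kg/d and 0.573 ± 0.45 CPM in control livers (SD, n = 4 and 6).

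Enzymes that act on fatty acyl-CoA were higher in level by a similar size. Ehhadh, the bifunctional enzyme of peroxisomal beta-oxidation (rn6 chr11:82945104-82978365, plus strand), was read at 5.79, 2.41, 4.25 and 2.99 CPM in the livers of dams 2080, 2081, 2125 and 2126 at 10 mg/kg/d, against 1.15 to 3.71 CPM in control livers, with a median of 2.39 CPM. The livers of dams 2080 and 2125 lay above every control liver and the other pair lay within the control range. Ehhadh had a log2 fold change of 0.77 ± 0.31 (SE). Acot1, a cytosolic acyl-CoA thioesterase (rn6 chr6:107485249-107493799, plus strand), stood at 3.28, 3.81, 4.25 and 5.27 CPM at 10 mg/kg/d, against 1.15 to 3.88 CPM in control livers, with a median of 2.34 CPM. Only the livers of block 143 lay above the control range for Acot1, and the log2 fold change was 0.81 ± 0.37 (SE). Acot2, its mitochondrial relative, had a log2 fold change of 0.80 ± 0.30 (SE), with 4.41 to 6.84 CPM at 10 mg/kg/d against 1.60 to 4.96 CPM in control livers. Acot1 and Acot2 are close in sequence, which makes each of them less certain alone. The mean log2 CPM was 2.35 for Ehhadh, 2.22 for Acot1 and 2.16 for Acot2, so all of them were in the class under 3.

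The groups parted in 2 of the 24 PPAR-alpha genes, Adtrp and Rgn, both higher at 10 mg/kg/d. Of all 12659 genes tested, 16 (0.126%) had every liver at 10 mg/kg/d above every control liver. Adtrp, a membrane hydrolase that in human and mouse cleaves fatty acid esters of hydroxy fatty acids (rn6 chr17:22619891-22688308, plus strand), was read at 199 CPM (dam 2080), 141 CPM (dam 2081), 162 CPM (dam 2125) and 189 CPM (dam 2126) at 10 mg/kg/d, against a lowest of 88.3 CPM, a median of 127 CPM and a highest of 140 CPM in control livers. All 4 livers at 10 mg/kg/d lay above all 6 control livers, though the lowest of them did so narrowly. Its log2 fold change was 0.59 ± 0.15 (SE), with 0.62 within block 140 and 0.71 within block 143. With fetal sex as a covariate it was 0.66, past the threshold (edgeR adjusted p = 0.0462).

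Other lipid genes differed less. Lpl, the lipase that frees fatty acids from circulating lipoproteins, had a log2 fold change of 0.28 ± 0.11 (SE), with 144 to 181 CPM at 10 mg/kg/d against 124 to 153 CPM in control livers. Cpt2, the inner carnitine acyltransferase of mitochondria, had 0.33 ± 0.14 (SE) on the log2 scale. Vnn1, a pantetheinase, stood at 6.92 ± 0.994 CPM at 10 mg/kg/d and 6.21 ± 0.870 CPM in control livers (SD, n = 4 and 6), with a log2 fold change of 0.20 ± 0.23 (SE). Pdk4, a kinase that restrains pyruvate oxidation, did not pass the filter and had 0 counts in all 4 livers at 10 mg/kg/d.

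**Figure D2:**
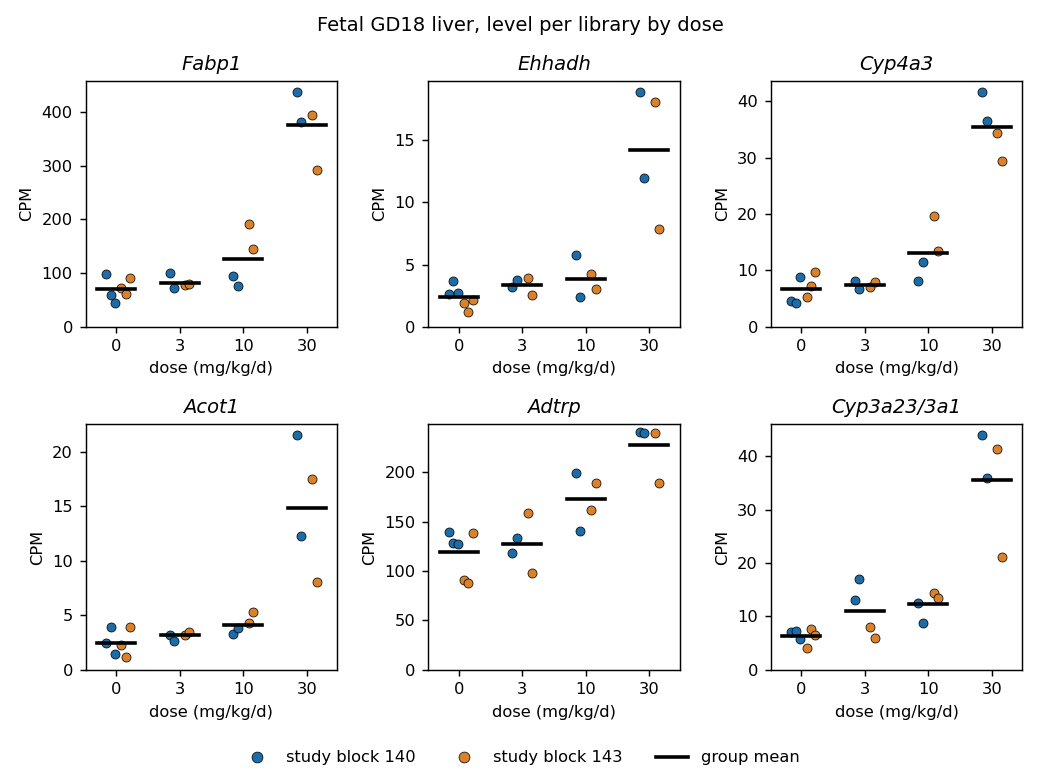
Level in CPM, on linear axes from 0, of 6 genes in each fetal GD18 liver at 0 (control), 3, 10 and 30 mg/kg/d, coloured by study block, with a bar at the group mean. For Fabp1, Ehhadh, Cyp4a3, Acot1 and Cyp3a23/3a1 every liver at 10 mg/kg/d lies below every liver at 30 mg/kg/d, while for Adtrp these groups overlap. All 6 genes are among the 13 called higher at 30 mg/kg/d against control, a choice that favours this order. The share of all genes parted in this way was not counted.

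In the oxidation lists few genes passed the unadjusted threshold, which 1.17% of all genes passed as higher. Of 13 peroxisomal beta-oxidation genes tested, 1 was higher at an unadjusted p under 0.05 (Ehhadh) and 0 were lower, and the median log2 fold change was 0.19. Of 20 mitochondrial beta-oxidation genes, 2 were higher (Cpt2 and Acot2) and 0 lower, with a median of 0.20. In the mitochondrial list 18 of 20 fold changes lay above 0, as did 45.8% over all genes and 62.4% of the better expressed ones, and the summed level was 2140 to 2390 CPM at 10 mg/kg/d, against 1950 to 2190 CPM in control livers. The 5 ketogenesis genes tested had a median of 0.14, with 0 genes past the unadjusted threshold in either direction.

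In fatty acid synthesis, the median log2 fold change was 0.13. Over all genes 1.17% were higher and 5.65% lower at an unadjusted p under 0.05. In this list 1 of 18 genes was higher and 0 were lower. That gene was Fads1, the delta-5 desaturase of polyunsaturated fatty acids, at 9.85, 18.3, 23.7 and 30.4 CPM in the livers of dams 2080, 2081, 2125 and 2126 at 10 mg/kg/d, against 9.74 to 17.5 CPM in control livers, with a median of 14.4 CPM. The liver of dam 2080 was near the lowest control liver and the other 3 lay above the control range. Fads1 had a log2 fold change of 0.59 ± 0.22 (SE). Srebf1, a transcription factor that raises lipogenic genes, differed by block: its log2 fold change was 0.08 within block 140 and 1.28 within block 143. The difference between the block responses of Srebf1 was 1.35 ± 0.55 (SE), and in that comparison edgeR called 0 of 12659 genes after Benjamini-Hochberg adjustment, with 526 (4.16%) at an unadjusted p under 0.05.

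In cholesterol biosynthesis, 0 of 19 genes were higher and 1 was lower at an unadjusted p under 0.05. The median log2 fold change was 0.06. Over all genes 1.17% were higher and 5.65% lower by that measure, so 1 lower gene of 19 is close to the share over all genes. The lower gene was Msmo1, a sterol methyl oxidase of the pathway, at 7.15, 6.22, 8.94 and 7.69 CPM at 10 mg/kg/d, against 8.22 to 13.8 CPM in control livers, with a median of 10.7 CPM. The liver of dam 2125 overlapped the control range and the other 3 lay below it. Msmo1 had a log2 fold change of -0.47 ± 0.21 (SE). Hmgcs1, the cytosolic synthase at the head of the pathway, had -0.58 ± 0.30 (SE) on the same scale. Of 17 lipoprotein genes, 2 were higher (Lpl and Fabp1) and 0 lower, with a median of 0.18.

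Among 15 targets of CAR and PXR tested, 2 were higher at an unadjusted p under 0.05, Cyp3a23/3a1 and Aldh1a1. By the same measure 1 was lower (Slco1a4), while 1.17% of all genes were higher and 5.65% lower. The list had a median log2 fold change of -0.21. That median ran from -0.50 to 0.24 over the alternatives, so it has no settled direction. Cyp3a23/3a1, the cytochrome P450 that serves as the usual marker of PXR in rat (rn6 chr12:11655402-11733137, minus strand), stood at 12.6 CPM (dam 2080), 8.69 CPM (dam 2081), 14.4 CPM (dam 2125) and 13.4 CPM (dam 2126) at 10 mg/kg/d, against a lowest of 4.02 CPM, a median of 6.83 CPM and a highest of 7.72 CPM in control livers. All 4 livers at 10 mg/kg/d lay above all 6 control livers. The log2 fold change was 1.01 ± 0.29 (SE), with 0.92 within block 140 and 1.19 within block 143. A gene model inside the same interval, AABR07035374.1, had 0.90 ± 0.31 (SE), and the way reads were divided between this pair is not stated.

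Aldh1a1, a retinal dehydrogenase, had a log2 fold change of 1.24 ± 0.42 (SE) that rested on 1 liver. Its level was 16 CPM in the liver of dam 2081 and 2.85 to 4.84 CPM in the other 3 at 10 mg/kg/d, against 1.53 to 4.04 CPM in control livers. Without the liver of dam 2081 the log2 fold change of Aldh1a1 was 0.52. Cyp2b1, the usual marker of CAR, was read at 1.74, 1.97, 0.184 and 0.114 CPM at 10 mg/kg/d, against 0.0455 to 5.07 CPM in control livers, and the block 143 livers of both groups were the low ones. Its log2 fold change of -0.44 ± 0.93 (SE) turned to 1.07 with the receptor share as a covariate, so no direction can be given for Cyp2b1. Ephx1, the microsomal epoxide hydrolase, had 0.31 ± 0.15 (SE).

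**Figure D3:**
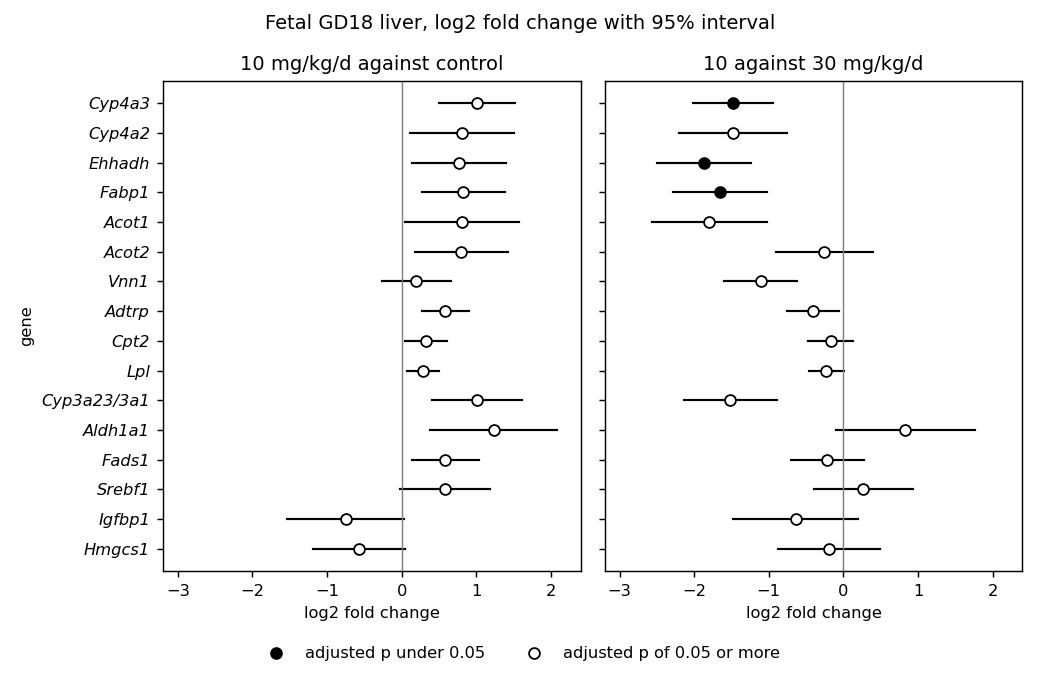
Log2 fold changes of named genes in fetal GD18 liver with 95% intervals, at 10 mg/kg/d against control (left) and at 10 against 30 mg/kg/d (right), filled where the edgeR adjusted p was under 0.05. No point is filled on the left, and those of Cyp4a3, Ehhadh and Fabp1 are filled on the right, below 0.

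Other functions of fetal liver gave few genes past the unadjusted threshold, which 1.17% of all genes passed as higher and 5.65% as lower. None of the genes of the AhR, NRF2, bile acid, acute phase, cell cycle, p53, ER stress and thyroid hormone lists passed it in either direction. In the list of complement and coagulation 1 of 26 was higher, the protease C1s, with a log2 fold change of 0.42 ± 0.14 (SE). Of the 26 fold changes 22 lay above 0, as did 45.8% over all genes and 62.4% of the better expressed ones. In the glucose list 1 of 22 was lower, the glycolytic enzyme Pfkl, with -0.42 ± 0.20 (SE). In the growth list 1 of 12 was lower, Socs3, an inhibitor of cytokine signalling, with -0.53 ± 0.25 (SE).

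Genes that lead those lists by p value gave small differences. Acat1, the mitochondrial thiolase of ketone metabolism, averaged 856 ± 179 CPM at 10 mg/kg/d and 675 ± 175 CPM in control livers (SD, n = 4 and 6). Gpt, alanine aminotransferase, averaged 14.8 ± 1.66 CPM at 10 mg/kg/d and 11.9 ± 2.66 CPM in control livers. Hpx, the haem-binding acute phase protein, averaged 119 ± 10.9 CPM at 10 mg/kg/d and 101 ± 9.89 CPM in control livers, and Ttr, the carrier of thyroid hormone, 105 ± 31.2 CPM at 10 mg/kg/d and 95.8 ± 33.6 CPM in control livers. For each of these 4 genes the 95% interval of the log2 fold change included 0. Atf4, a stress-response transcription factor, averaged 108 ± 39.9 CPM at 10 mg/kg/d and 136 ± 67.2 CPM in control livers, and Ccng1, a target of p53, 5.73 ± 2.21 CPM at 10 mg/kg/d and 4.44 ± 1.84 CPM in control livers. Their intervals included 0 as well. Afp and Alb, the main secreted proteins of fetal and adult hepatocytes, had log2 fold changes of 0.10 ± 0.12 and 0.07 ± 0.10 (SE). Cyp2b2, Cyp7a1 and Pck1 did not pass the filter on low counts.

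Igfbp1, an insulin-like growth factor binding protein that fasting raises in liver, was spread widely in both groups. It was read at 129 CPM (dam 2080), 72.6 CPM (dam 2081), 65.7 CPM (dam 2125) and 61.1 CPM (dam 2126) at 10 mg/kg/d, against a lowest of 56.4 CPM, a median of 144 CPM and a highest of 229 CPM in control livers. The groups overlapped over most of their range. The log2 fold change of Igfbp1 was -0.75 ± 0.38 (SE), with -0.18 within block 140 and -1.18 within block 143.

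**Figure D4:**
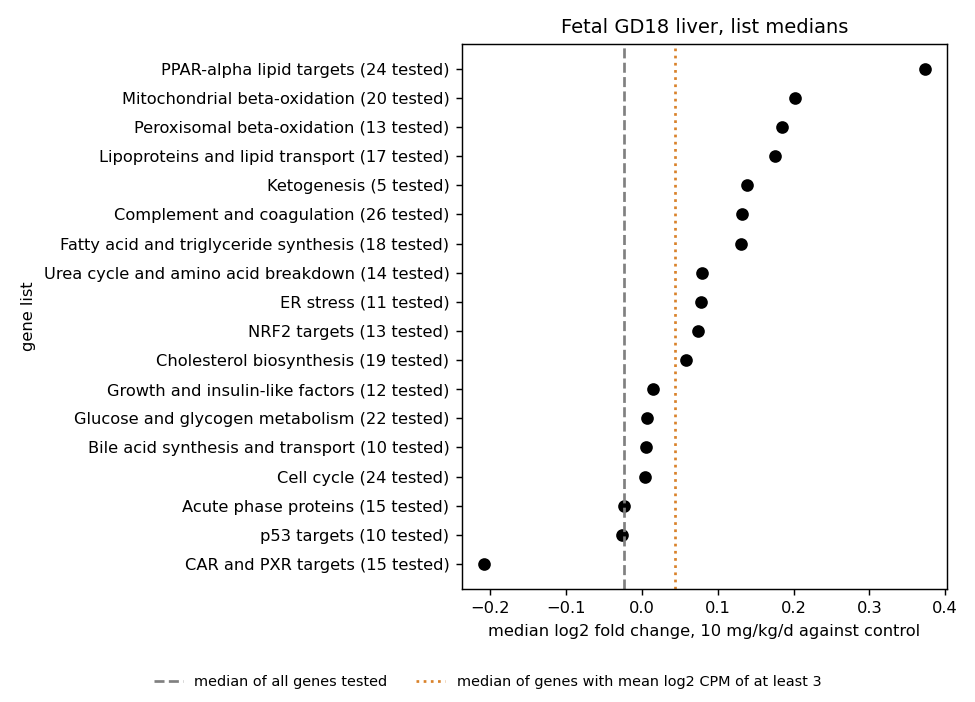
Median log2 fold change at 10 mg/kg/d against control in fetal GD18 liver, 1 point for each biology list with at least 5 genes tested, with lines at the median of all genes and of the better expressed ones. The PPAR-alpha list lies farthest right, at 0.37, and the CAR and PXR list farthest left, at -0.21, a median that ran from -0.50 to 0.24 over the alternatives.

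Across all genes, 16 (0.126%) had every liver at 10 mg/kg/d above every control liver and 21 (0.166%) had every one below. Among the better expressed genes there were 8 above and 2 below. Those above included Cyp3a23/3a1, Adtrp, Rgn (regucalcin, a calcium-binding protein of hepatocytes), Lifr (the receptor for leukaemia inhibitory factor), Rbp7 (a cellular retinol-binding protein) and Tmem192 (a lysosomal membrane protein). Rgn stood at 26.5, 24.9, 25.8 and 30.4 CPM at 10 mg/kg/d, against 16.4 to 24.1 CPM in control livers, with a median of 19.4 CPM. Lifr stood at 374, 389, 362 and 326 CPM at 10 mg/kg/d, against 217 to 324 CPM in control livers, with a median of 296 CPM. In both genes the lowest liver at 10 mg/kg/d lay only just above the highest control liver. Their log2 fold changes were 0.47 ± 0.14 for Rgn and 0.40 ± 0.13 for Lifr (SE). The 2 genes below were Dnajc21, a co-chaperone that in human cells acts in ribosome assembly, with -0.56 ± 0.20 (SE), and Bap1, a deubiquitinase, which was chosen after its values were seen. The value for Dnajc21 was -0.32 without the control liver of dam 2070. Ncoa1, a coactivator of nuclear receptors that was also chosen after its values were seen, had 3.28 to 5.21 CPM at 10 mg/kg/d against 1.82 to 3.82 CPM in control livers, with a log2 fold change of 0.78 ± 0.20 (SE).

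The next comparison asked where livers at 10 mg/kg/d stood relative to those at 30 mg/kg/d. By edgeR with Benjamini-Hochberg adjustment 4 of 12659 genes (0.0316%) were called, all lower at 10 mg/kg/d: Ehhadh, Cyp4a3, Fabp1 and AABR07035374.1. Fabp1 stood at 94.8, 75.4, 192 and 144 CPM at 10 mg/kg/d, against 438, 382, 394 and 291 CPM at 30 mg/kg/d, and the groups did not overlap. Its log2 fold change was -1.65 ± 0.31 (SE, edgeR adjusted p = 0.0417), with -2.26 within block 140 and -1.05 within block 143. Ehhadh averaged 3.86 ± 1.5 CPM at 10 mg/kg/d and 14.2 ± 5.24 CPM at 30 mg/kg/d (SD, n = 4 each), with a log2 fold change of -1.87 ± 0.31 (SE, edgeR adjusted p = 0.0191). Cyp4a3 averaged 13.1 ± 4.86 CPM at 10 mg/kg/d and 35.4 ± 5.16 CPM at 30 mg/kg/d, with -1.48 ± 0.26 (SE, edgeR adjusted p = 0.0306).

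The called genes kept their direction in every alternative run, but the number of calls rested on single libraries. Among livers at 10 mg/kg/d, leaving out that of dam 2080 gave 1 call, of dam 2125 gave 2, and of dam 2081 or 2126 gave 0. Among livers at 30 mg/kg/d, leaving out that of dam 2083 gave 1 call, of dam 2128 gave 7, and of dam 2082 or 2127 gave 0. There were also 0 calls without the block term or within either block alone. With fetal sex as a covariate Fabp1 was not called (edgeR adjusted p = 0.062), and with the haemoglobin share neither were Cyp4a3 (edgeR adjusted p = 0.052) and AABR07035374.1 (edgeR adjusted p = 0.13). An unadjusted p under 0.05 was reached by 207 genes (1.64%), of which 105 (0.829%) were higher and 102 (0.806%) lower at 10 mg/kg/d than at 30 mg/kg/d, and in the PPAR-alpha list 0 of 24 were higher and 10 lower. The median log2 fold change of that list was -0.41, against 0.01 over all genes. Cyp3a23/3a1 had 12.3 ± 2.49 CPM at 10 mg/kg/d and 35.6 ± 10.3 CPM at 30 mg/kg/d (SD, n = 4 each), with a log2 fold change of -1.51 ± 0.31 (SE, edgeR adjusted p = 0.0877).

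Against the same 6 control livers, 13 genes (0.103%) were called at 30 mg/kg/d. Since both doses share their controls and these genes were chosen on the 30 mg/kg/d livers, the values are only set side by side. The 13 genes had a median log2 fold change of 0.78 at 10 mg/kg/d (0.20 to 1.01) and of 2.29 at 30 mg/kg/d. Fabp1 had a log2 fold change of 0.83 at 10 mg/kg/d and 2.48 at 30 mg/kg/d, and Ehhadh of 0.77 at 10 mg/kg/d and 2.64 at 30 mg/kg/d. Cyp4a3 had 1.01 at 10 mg/kg/d and 2.49 at 30 mg/kg/d, and Acot1 0.81 at 10 mg/kg/d and 2.61 at 30 mg/kg/d. Adtrp had 0.59 at 10 mg/kg/d and 0.99 at 30 mg/kg/d, and Cyp3a23/3a1 1.01 at 10 mg/kg/d and 2.53 at 30 mg/kg/d. In all 6 genes the value at 10 mg/kg/d was the smaller one.

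Livers at 10 mg/kg/d were not parted from those at 3 mg/kg/d by the main test. edgeR with Benjamini-Hochberg adjustment called 0 of 12659 genes (0.0%), as did DESeq2, while 954 (7.54%) had an unadjusted p under 0.05, of which 82 (0.648%) were higher and 872 (6.89%) lower. Without the liver of dam 2079 at 3 mg/kg/d, 82 were higher and 90 lower, and without that of dam 2078 at 3 mg/kg/d, 351 were higher and 1708 lower. Leaving out any of the other 6 livers of these doses gave 132 to 329 higher and 401 to 997 lower. In the PPAR-alpha list 2 of 24 genes were higher and 1 was lower by that measure. Cyp4a3 averaged 13.1 ± 4.86 CPM at 10 mg/kg/d and 7.41 ± 0.665 CPM at 3 mg/kg/d (SD, n = 4 each), with a log2 fold change of 0.83 ± 0.27 (SE). Fabp1 averaged 127 ± 52.3 CPM at 10 mg/kg/d and 81.7 ± 12.2 CPM at 3 mg/kg/d, with 0.60 ± 0.30 (SE), and Cyp3a23/3a1 averaged 12.3 ± 2.49 CPM at 10 mg/kg/d and 11 ± 4.99 CPM at 3 mg/kg/d, with 0.25 on the log2 scale. Y-linked genes exceeded 100 CPM in 4 of 4 livers at 3 mg/kg/d and in 1 of 4 at 10 mg/kg/d. With fetal sex as a covariate, chosen here after seeing the data, edgeR called 306 genes. Of these 304 were lower, including 97 receptor genes. With sex and the receptor share together it called 0, a drop that was again built in in part.

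Maternal liver of the same dams was compared with fetal liver at the same dose. In the dams, edgeR with Benjamini-Hochberg adjustment called 6 of 13783 genes (0.0435%) at 10 mg/kg/d against control. The 4 higher ones (0.029%) were Cyp3a23/3a1, AABR07035374.1, Cyp2b1 and Cyp2b2, and the 2 lower ones (0.0145%) were LOC499219 and Olr1369, both chosen after their values were seen. Cyp3a23/3a1 rose by 2.29 ± 0.40 on the log2 scale in maternal liver (SE, edgeR adjusted p = 0.0168), against 1.01 ± 0.29 in fetal liver, where it was not called. The maternal levels were 389, 342, 1720 and 300 CPM at 10 mg/kg/d, against 92.5 to 172 CPM in control livers. The 1720 CPM belonged to dam 2125, so the size of the maternal rise depends in part on 1 library. Fabp1 had -0.02 ± 0.20 (SE) in maternal liver, against 0.83 ± 0.27 in fetal liver, and Ehhadh had 0.59 ± 0.23 in maternal liver, against 0.77 ± 0.31 in fetal liver.

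The difference between those responses was tested itself. edgeR with Benjamini-Hochberg adjustment called 0 of 15702 genes (0.0%), with a smallest adjusted p of 0.776 and 782 genes (4.98%) below 0.05 before adjustment, and DESeq2 made 0 calls. The fetal minus the maternal log2 fold change was 0.75 ± 0.39 for Fabp1, 0.71 ± 0.37 for Cyp4a3, 0.08 ± 0.37 for Ehhadh, -1.36 ± 0.53 for Cyp3a23/3a1 and -3.64 ± 1.06 for Cyp2b1 (SE). The levels were far apart: Fabp1 averaged 127 ± 52.3 CPM in fetal and 6280 ± 1870 CPM in maternal liver at 10 mg/kg/d, against 70.9 ± 20.5 CPM in fetal and 6250 ± 1650 CPM in maternal control liver (SD, n = 4 and 6). The estimate for Ehhadh was near 0 and changed sign with the library left out.

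Fetal liver at GD21, from dams dosed from GD17, was the other fetal group at 10 mg/kg/d, with 3 livers and 3 control livers. Study block 144 holds all GD21 livers, so age and block cannot be told apart. At GD21 edgeR with Benjamini-Hochberg adjustment called 0 of 10244 genes (0.0%), with 388 (3.79%) at an unadjusted p under 0.05, of which 232 (2.26%) were higher and 156 (1.52%) lower. Of 26 PPAR-alpha genes tested there, 11 were higher and 0 lower by the unadjusted measure, with a median log2 fold change of 0.72. Fabp1 stood at 1680, 1350 and 1360 CPM at 10 mg/kg/d, against 209, 263 and 352 CPM in control livers, and Acot1 at 28.5, 72.2 and 22.7 CPM at 10 mg/kg/d, against 2.24, 1.57 and 2.39 CPM in control livers. Neither gene overlapped between the groups at GD21, while both overlapped at GD18. Smaller groups part more readily by chance, and the GD21 groups were the smaller ones. The share of all genes that parted at GD21 was not counted, so overlap cannot be used to compare the ages.

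The GD18 minus the GD21 log2 fold change was -1.52 ± 0.46 for Fabp1, -3.39 ± 0.72 for Acot1, -0.89 ± 0.47 for Cyp4a3, -1.0 ± 0.57 for Ehhadh and -0.29 ± 0.29 for Adtrp (SE). edgeR with Benjamini-Hochberg adjustment called 0 of 14697 genes (0.0%) for this difference, with 715 (4.86%) at an unadjusted p under 0.05 and a smallest adjusted p of 0.0852, for Dph5. For Acot1 and Fabp1 the edgeR adjusted p was 0.238 for Acot1 and 0.852 for Fabp1. DESeq2 called 4 genes, Acot1, Dph5, Fam149a and Nfs1, of which the last 3 were chosen after their values were seen. Its value for Nfs1 was -31.46 on the log2 scale, too extreme to be read as a measured difference. The starting levels differed too: Fabp1 averaged 70.9 ± 20.5 CPM in GD18 control livers (SD, n = 6) and 275 ± 72.5 CPM in GD21 control livers (SD, n = 3), a difference that was not tested here.

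**Figure D5:**
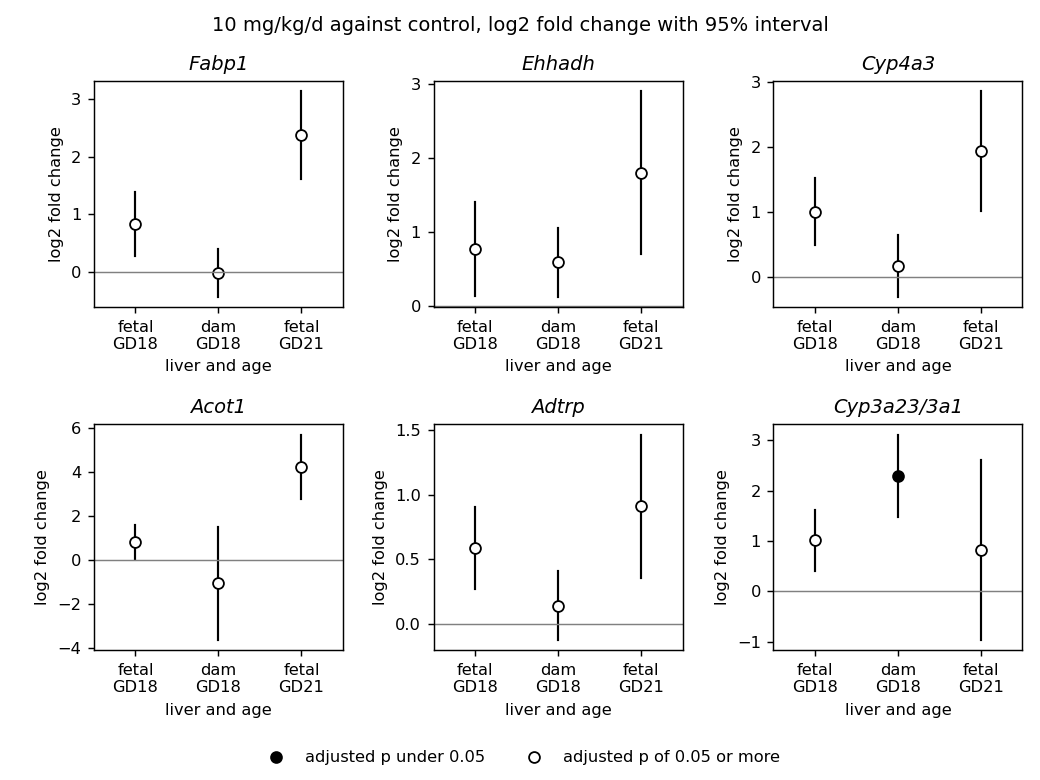
Log2 fold changes with 95% intervals at 10 mg/kg/d against control in fetal GD18, maternal GD18 and fetal GD21 liver for named genes. The fetal GD18 value for Fabp1, 0.83, lies between the maternal value, -0.02, and the fetal GD21 value, and for Cyp3a23/3a1 the maternal value is the highest of the 3.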

How the data were processed

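TempO-Seq libraries of fetal and maternal rat liver were deposited as estimated counts per gene, not normalised; per the submitters' processing notes STAR 2.7.3a, Partek and rn6 were used, with the role of each not given. Of the deposited estimated counts 7.61% were not whole, over 4145 genes, and all were rounded to whole numbers before the tests. The authors' log2 file was not used.

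The 30 fetal GD18 libraries of all doses were fitted together with dose as groups and study block as a term, using the quasi-likelihood test of edgeR 4.0.16 (R 4.3.3) after filterByExpr and TMM scaling, with a prior count of 0.125. All tests were two-sided, and p values were adjusted by Benjamini-Hochberg over all genes tested, with a threshold of 0.05. Each SE was obtained from the fold change and its F value, and intervals are at 95%. CPM was made from the estimated counts and raw library totals, with no TMM factor. The maternal and age differences came from joint fits of 60 and 45 libraries. Total counts were 4640700 to 7017710 in the 10 libraries, and the chi-square per degree of freedom between replicates was 6.66 to 76.3. The code was tested on simulated data.

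The gene lists (617 entries, 517 in the file by symbol, 33 lists of which 13 are markers) and the comparisons were chosen with earlier results of these data known. Named genes were those whose mean log2 CPM was 3 or more, with every treated liver beyond every control liver and the largest fold changes, those of smallest p in each list, and a fixed set; some genes that the rule names are not reported here. Dams and fetuses were paired by dam number in the labels: over 10 pairs the correlation of their deviations across 6410 genes had a median of 0.0991 (-0.0728 to 0.183). Alternatives were RLE factors, no filter, DESeq2 1.42.0, no block term, each block alone, only the control and 10 mg/kg/d libraries, dam as a block, each library left out, and covariates for receptor share, haemoglobin share and fetal sex (Y-linked CPM above 100). Promoters are RefSeq, GRCr8, matched by symbol. Intervals cover spread between libraries only.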

Additional observations from a re-analysis of the deposited data

Results flagged for a closer look

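Of 70 sets of library values examined for named genes, 4 held a library that stood apart from its own group, where chance gives about 1 in 20 such sets. Aldh1a1 was 16 CPM in the liver of dam 2081 at 10 mg/kg/d, and 2.85 to 4.84 CPM in the other 3 livers of that dose. Igfbp1 was 129 CPM in the liver of dam 2080 at 10 mg/kg/d, and 61.1 to 72.6 CPM in the other 3. Tmem192 was 13.3 CPM in the liver of dam 2125 at 10 mg/kg/d, and 11 to 11.2 CPM in the other 3. Dnajc21 was 32.5 CPM in the control liver of dam 2070, and 13.8 to 15.6 CPM in the other 5 control livers.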

How the results depend on the processing

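For 10 mg/kg/d against control, calls were 0 with RLE factors, no filter, DESeq2, no block term, each block alone, the receptor, haemoglobin and combined covariates, receptor genes left out, and each library left out. With only control and 10 mg/kg/d libraries there was 1 call (AC124874.1, lower). With fetal sex as a covariate there were 151: Adtrp (log2 fold change 0.66, edgeR adjusted p = 0.0462) and Poglut1 higher, and 149 lower, of which 46 were receptor genes. Against 3 mg/kg/d the sex covariate, chosen for this comparison after seeing the data, gave 306 calls, 2 of them higher, and the other alternatives 0. The cause was not tested.

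Against 30 mg/kg/d the 4 calls became 7 with DESeq2, 7 with the receptor covariate, 2 with the haemoglobin covariate, 4 with the sex covariate (Fabp1 lost, Cyp4a2 gained), 0 without the block term and 0 in block 140 or block 143 alone, where fewer samples remain; with 1 library left out they were 0 to 7. For fetal minus maternal responses the count stayed 0, also with dam as a replicate block, where 367 genes had an unadjusted p under 0.05. For GD18 minus GD21 it was 4 with DESeq2, and 0 to 1 with 1 library left out. Cyp2b1 reversed to 1.07 with the receptor covariate and 1.58 with that and sex. The fetal minus maternal value of Ehhadh was -0.11 to 0.28 with 1 library left out, reversed without fetal control 2115 (-0.02), fetal 2080 (-0.11), fetal 2125 (-0.02) or maternal control 2115 (-0.03), and the GD18 minus GD21 value of Cyp3a23/3a1 reversed to -0.40 without GD21 control 2130 and -0.13 without the GD21 liver of dam 2140. The PPAR-alpha list's median was 0.27 to 0.44 over all alternatives, while that of the CAR and PXR list was -0.50 to 0.24. Few counts limit what can be seen for genes with a mean log2 CPM under 3.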
